A study of Mus musculus with 9 samples.

Results

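The kinesin motor genes of the mouse nucleus accumbens are described here. They were taken by symbol from the authors' table of all 3 libraries (Kif followed by a number and at most 1 letter, Kifc followed by 1 digit, and Klc1 to Klc4), with a mean above 0 RPKM over the 9 lanes. This gave 42 of 21423 genes, and 31 of the 42 averaged 1 RPKM or more and entered the comparisons, in which 14051 genes were tested. RPKM is a read number scaled to the length of the gene model and to the lane's total, so levels can be set side by side between genes.

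Adult male C57BL/6 mice, 2 to 5 months old and without any engineered allele in the labels, gave the tissue, a part of the ventral striatum made up mostly of medium spiny neurons. The withdrawal group had 7 daily intraperitoneal injections of cocaine, at 10 or 20 mg/kg without the labels saying which, and was then left in the home cage for 8 days. The cocaine group also had 7 such injections and was killed 24 h after the last. The saline group had 7 injections of saline at 10 ml/kg and was killed at 24 h as well. Equal amounts of RNA from 8 mice were pooled in each group, and the 1 poly(A) library made from each pool was sequenced in 3 lanes. Lanes are technical runs, so n was 1 library per group, no p-value about a treatment could be had, and the spread given is that between lanes.

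Kinesins are motor proteins that use ATP to move along microtubules, most of them towards the fast-growing end, which in an axon points away from the cell body. In neurons they carry vesicles, mitochondria, receptors and RNA granules from the soma into axons and dendrites, while dynein moves cargo back. Other members do not carry cargo but shorten microtubules, build the mitotic spindle or work in cilia. Medium spiny neurons send long axons to the midbrain and pallidum and so depend on this transport.

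The data show a family dominated by neuronal transport motors, with few members called against saline and none between the cocaine and withdrawal libraries. Calls were made on size: the lane means of log2(RPKM + 0.5) had to differ 1.5 times or more, and the lanes of both libraries had to be free of overlap. By this rule 2 of 31 members, Kif26b and Kif13b, were higher and 0 were lower in cocaine than in saline, where 2.93% of all tested genes were higher and 2.41% lower (5.33% either way). In withdrawal 3 members, Kif26b, Kif13b and Kif21b, were higher and 0 were lower than in saline, where 3.96% of all tested genes were higher and 3.37% lower (7.33% either way). Beside these shares, the counts of 2 and 3 members are small numbers that rest on single genes. No member was called between withdrawal and cocaine, where 0.47% of all tested genes were higher and 0.548% lower (1.02% either way).

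Promoter sequence is shown for 3 members, Kif26b because it differed most between libraries, Kif1a because its difference lay just inside 1.5 times, and Kif3a because it was the member furthest below saline in withdrawal. Each run is the 250 bases before the start listed first for the gene in RefSeq's table of GRCm38.p6, 5′ to 3′ on the gene's strand, with capitals for matches on either strand to the letter patterns searched. The windows are chr1:178528875-178529124 (+ strand) for Kif26b, chr1:93101875-93102124 (- strand) for Kif1a and chr11:53567119-53567368 (+ strand) for Kif3a.
Kif26b: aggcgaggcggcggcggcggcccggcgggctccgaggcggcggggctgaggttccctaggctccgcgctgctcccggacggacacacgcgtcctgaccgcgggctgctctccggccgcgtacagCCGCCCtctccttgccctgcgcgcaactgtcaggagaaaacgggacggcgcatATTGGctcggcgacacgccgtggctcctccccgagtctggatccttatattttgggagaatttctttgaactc
Kif1a: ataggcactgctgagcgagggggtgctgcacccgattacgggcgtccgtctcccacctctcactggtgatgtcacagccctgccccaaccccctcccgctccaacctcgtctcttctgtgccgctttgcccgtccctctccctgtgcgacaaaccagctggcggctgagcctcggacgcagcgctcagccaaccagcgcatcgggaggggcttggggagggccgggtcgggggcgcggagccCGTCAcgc
Kif3a: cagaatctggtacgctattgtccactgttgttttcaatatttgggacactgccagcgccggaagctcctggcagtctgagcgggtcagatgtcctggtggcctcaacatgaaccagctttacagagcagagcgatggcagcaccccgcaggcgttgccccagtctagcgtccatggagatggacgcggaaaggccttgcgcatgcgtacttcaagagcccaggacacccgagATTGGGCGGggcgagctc

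The patterns searched were the cAMP response element TGACGTCA and its part TGACG, the AP-1 pattern TGANTCA, the GC box GGGCGG, the E-box CACGTG, the NRF1 pattern, the CCAAT box CCAAT and the TATA box TATAAA. The Kif26b and Kif3a windows each held 1 GC box, found in 32.7% of the 32851 windows of the table, and 1 CCAAT box, found in 33.8% of them, and in Kif3a these overlapped. In the Kif1a window there was 1 TGACG, here on the other strand as CGTCA, which 17.8% of windows held. The full TGACGTCA (1.55% of windows), AP-1 (6.75%), E-box (6.02%), NRF1 (3.74%) and TATA (12.4%) patterns were in none of the 3 windows. Guanine and cytosine made up 68.4% of the Kif26b window, 69.2% of the Kif1a window and 58.8% of the Kif3a window, against a median of 52.4% over the table. A match is a run of letters and not a measured binding site.

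Levels within the family spanned from 0.0822 RPKM for Kif18b (mean over 9 lanes) to 315.9 RPKM for Kif5a. Kif5a, Kif1a and Klc1 together made up 47.3% ± 0.34 of the summed member RPKM in withdrawal, 47.4% ± 0.23 in cocaine and 45.4% ± 0.74 in saline (mean ± SD over 3 lanes, as below). The sum over all members was 1505 to 1532 RPKM in the withdrawal lanes and 1548 to 1554 RPKM in the cocaine lanes, against 1336 to 1385 RPKM in the saline lanes, so that neither range met that of saline.

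**Figure D1:**
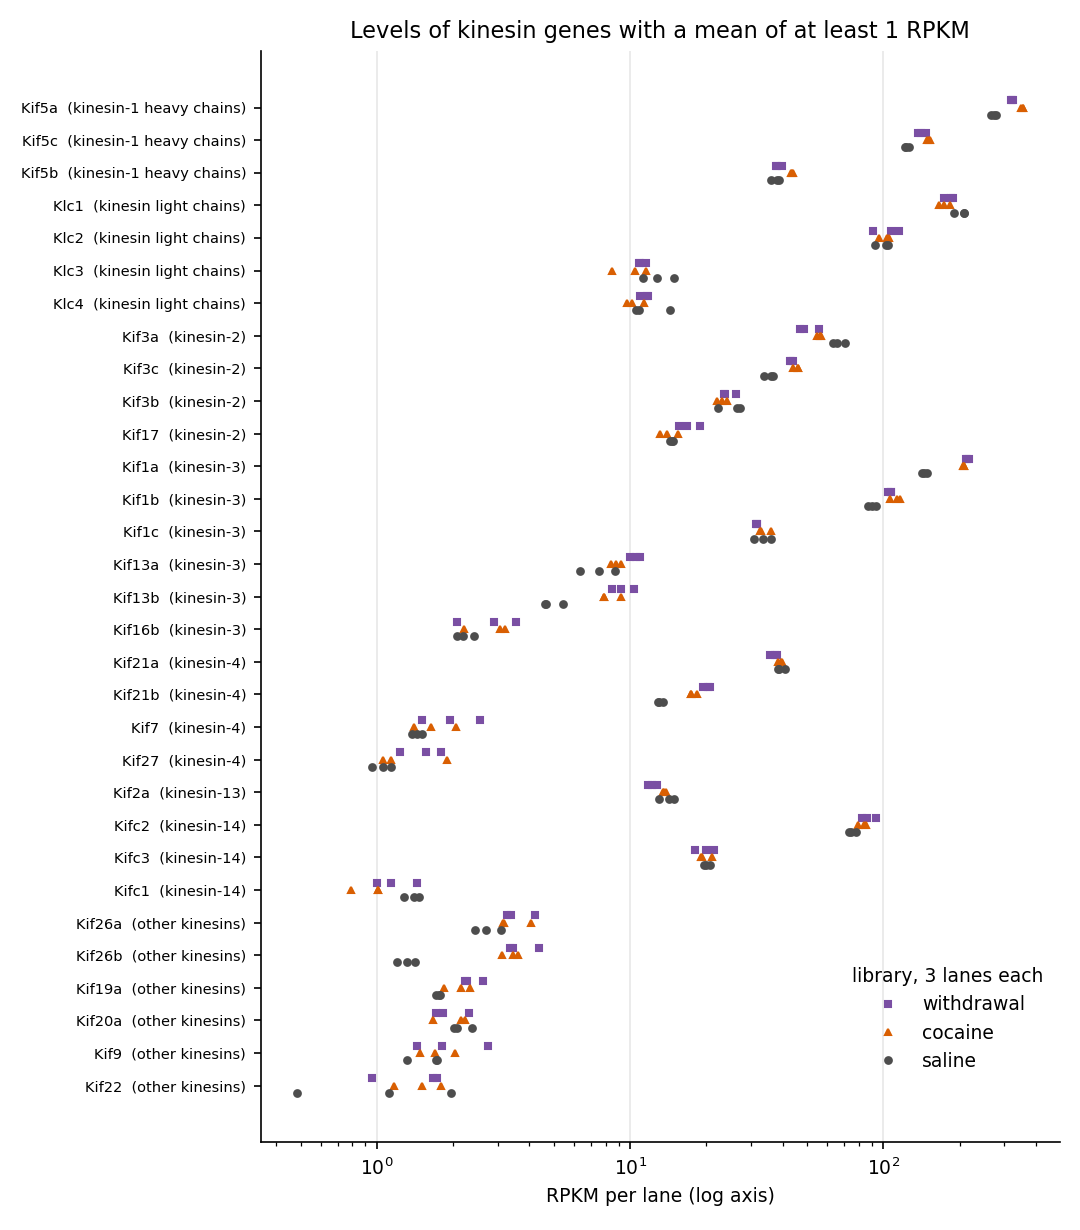
RPKM of the 31 tested kinesin genes, 1 marker per lane, on a log axis, grouped by subfamily, with withdrawal above cocaine above saline for each gene. Kif5a leads in every lane, and the markers of Kif26b, Kif13b, Kif21b and Kif1a in withdrawal and cocaine stand to the right of those in saline.

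The members differ in how far their reads are their own. In the GENCODE M21 annotation (GRCm38, while the submitters' processing notes name mm9), 50.3% of the 37-base words of Kifc1 also occur in another gene, mainly its near copy Kifc5b. For Kif3c the share is 39.9%, from antisense transcripts on the other strand, for Kif20a 26.3% (Cdc23), for Klc3 22.9% (Ercc2), for Kif2a 21.3% (Dimt1) and for Kif7 17.3%. The labels say nothing of strand in the library protocol, so the levels of these 6 members are uncertain. Kifc3 has antisense transcripts over its exons, and its level is uncertain as well. Smaller shares were found for Kif4 (15.2%), Klc2 (9.21%), Kif24 (6.87%), Kif2c (5.16%), Kif27 (5.04%), Kif5b (4.61%) and Kif11 (4.61%). In Kif5a, Kif5c, Kif21b and Klc1 no such word was shared, in Kif1a 0.21%, in Kif13b 0.399% and in Kif26b 5.96%, the last with an antisense transcript.

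Kif26b, an unconventional kinesin known from kidney development and Wnt5a signalling, had 4.34, 3.34 and 3.45 RPKM in the withdrawal lanes and 3.101, 3.61 and 3.45 RPKM in the cocaine lanes, against 1.31, 1.41 and 1.20 RPKM in the saline lanes. All 6 lanes of withdrawal and cocaine were above the 3 of saline, and withdrawal and cocaine overlapped. The mean was 2.84 times that of saline in withdrawal and 2.59 times in cocaine, a log2 difference of 1.21 ± 0.12 and 1.11 ± 0.074 (± standard error from lanes, which covers sequencing only). These levels came from 595.5 read equivalents in withdrawal and 684.5 in cocaine, against 282.8 in saline, a read equivalent being 37 aligned bases. Its relative Kif26a, which takes part in growth signalling of enteric neurons, had 3.62 ± 0.52 RPKM in withdrawal and 3.45 ± 0.51 RPKM in cocaine, against 2.74 ± 0.32 RPKM in saline, with lanes apart in both, and was not called (0.35 ± 0.13 and 0.29 ± 0.13).

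Kif13b, a kinesin-3 motor that binds the scaffold protein Dlg1, had 9.21, 8.50 and 10.3 RPKM in the withdrawal lanes and 7.87, 9.21 and 7.85 RPKM in the cocaine lanes, against 4.59, 5.44 and 4.63 RPKM in the saline lanes. Again every lane of withdrawal and cocaine lay above every lane of saline. The log2 difference from saline was 0.87 ± 0.11 in withdrawal and 0.71 ± 0.10 in cocaine. Its closest relative Kif13a, which carries the mannose 6-phosphate receptor, had 10.5 ± 0.47 RPKM in withdrawal and 8.77 ± 0.38 RPKM in cocaine, against 7.51 ± 1.2 RPKM in saline. The lanes of Kif13a stood apart from saline in withdrawal (0.47 ± 0.13) but overlapped in cocaine (0.22 ± 0.13), without a call in either.

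Kif21b, a kinesin-4 motor that takes part in the delivery of GABA-A receptors and restrains microtubule growth, had 19.4, 20.6 and 20.2 RPKM in the withdrawal lanes, 17.43, 17.45 and 18.4 RPKM in the cocaine lanes and 12.97, 12.88 and 13.5 RPKM in the saline lanes. The 3 libraries did not overlap at all, with withdrawal highest and saline lowest. Its difference from saline was 0.59 ± 0.032 in withdrawal, just past the limit of 0.585, and 0.42 ± 0.033 in cocaine, which was not called. The withdrawal call ended, with replicates standing for lanes, without withdrawal replicate 2 (0.58), without saline replicate 2 (0.58), with a pseudocount of 1 (0.58) and when centred by gene length (0.31). Kif21a, its paralogue, had 37.1 ± 1.3 RPKM in withdrawal, 39.1 ± 0.68 RPKM in cocaine and 39.3 ± 1.4 RPKM in saline, with the withdrawal lanes below both others (-0.08 ± 0.041 against saline). Within a lane, Kif21b over Kif21a was 0.542 ± 0.011 in withdrawal and 0.454 ± 0.014 in cocaine, against 0.335 ± 0.017 in saline, and the lanes of the 3 libraries did not overlap. The models of Kif21b and Kif21a are 10157 and 6496 bp long, and the part of length in this ratio was not tested.

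**Figure D2:**
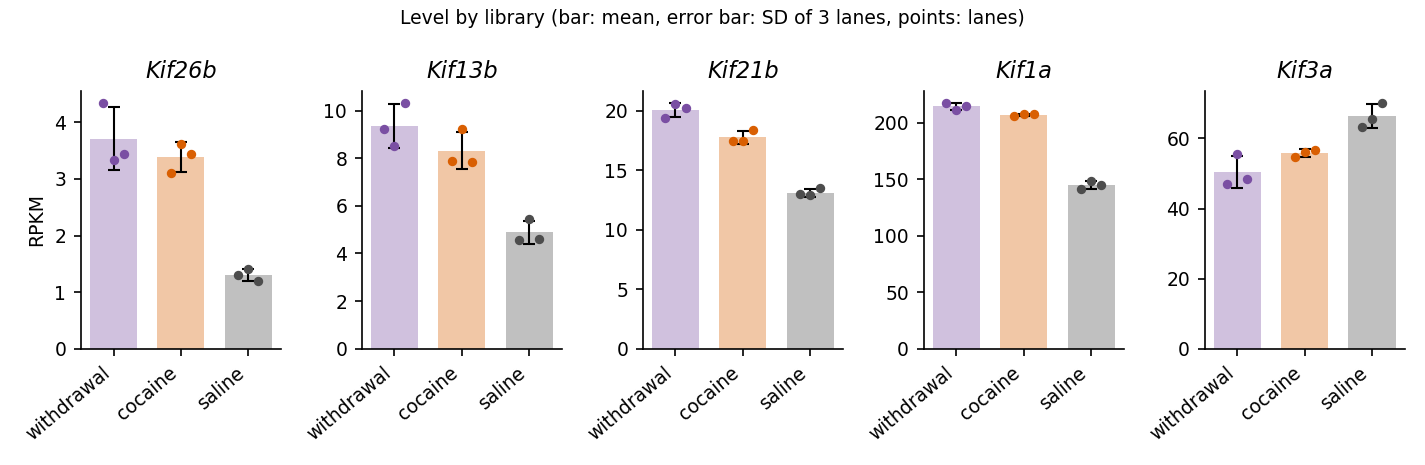
RPKM of Kif26b, Kif13b, Kif21b, Kif1a and Kif3a in the withdrawal, cocaine and saline libraries; bars are means of 3 lanes, error bars SD and points lanes. The lanes of withdrawal and cocaine lie above those of saline for the first 4 genes (Kif26b at 3.101 RPKM or more against at most 1.41) and below them for Kif3a.

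Kif1a, the main motor of synaptic vesicle precursors and dense core vesicles, was the most abundant kinesin-3 gene, with 217.8, 211.7 and 214.6 RPKM in the withdrawal lanes and 206.1, 207.6 and 207.9 RPKM in the cocaine lanes, against 141.9, 148.7 and 144.8 RPKM in the saline lanes. Saline stood well below both other libraries, and withdrawal lay slightly above cocaine without overlap. The difference from saline was 0.56 ± 0.023 in withdrawal and 0.51 ± 0.020 in cocaine, both just inside 1.5 times, so that Kif1a and Kif21b are the members on either side of the limit. After scaling to a common 75th percentile, or after setting the all-gene median difference to 0, Kif1a passed the limit in withdrawal (0.64 and 0.62).

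Kif1b, which carries mitochondria or synaptic vesicle precursors depending on the isoform, had 106.2 ± 2.0 RPKM in withdrawal and 112.1 ± 5.3 RPKM in cocaine, against 89.9 ± 3.3 RPKM in saline, with lanes apart and no call (0.24 ± 0.034 and 0.32 ± 0.050). Kif1c, which moves between Golgi and endoplasmic reticulum, had 31.6 ± 0.17 RPKM in withdrawal, 33.8 ± 1.8 RPKM in cocaine and 33.3 ± 2.5 RPKM in saline. The early endosome motor Kif16b was at 2.84 ± 0.74, 2.83 ± 0.54 and 2.23 ± 0.17 RPKM in withdrawal, cocaine and saline, with overlapping lanes. Summed over the 7 kinesin-3 genes in the table, the level was 369.7 to 379.5 RPKM in the withdrawal lanes and 368.4 to 378.4 RPKM in the cocaine lanes, against 272.5 to 288.4 RPKM in the saline lanes.

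Kinesin-1, the classical axonal motor, is built of a pair of Kif5 heavy chains and a pair of light chains that bind cargo. Kif5a, the neuronal heavy chain, had 318.0, 323.1 and 324.5 RPKM in the withdrawal lanes, 349.8, 357.0 and 355.0 RPKM in the cocaine lanes and 266.5, 272.1 and 276.9 RPKM in the saline lanes. Here cocaine was highest and saline lowest, with no overlap between any of the libraries. The difference from saline was 0.24 ± 0.018 in withdrawal and 0.38 ± 0.018 in cocaine, neither of them called. Kif5c, also enriched in neurons, followed with 141.4 ± 5.0 RPKM in withdrawal, 151.1 ± 2.1 RPKM in cocaine and 123.6 ± 2.7 RPKM in saline. Kif5b, the heavy chain found in most cell types, had 38.5 ± 1.2 RPKM in withdrawal and 43.5 ± 0.42 RPKM in cocaine, against 37.6 ± 1.4 RPKM in saline, so that withdrawal overlapped saline and cocaine did not. All 3 heavy chains had lanes apart and lower in withdrawal than in cocaine, with log2 differences of -0.14 (Kif5a), -0.10 (Kif5c) and -0.18 (Kif5b), short of the limit for a call.

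Light chains did not follow the heavy chains. Klc1, the main neuronal light chain, had 184.7, 174.1 and 188.6 RPKM in the withdrawal lanes and 183.1, 165.2 and 173.1 RPKM in the cocaine lanes, against 207.5, 208.8 and 190.5 RPKM in the saline lanes. Its lanes stood below saline in both libraries, at -0.15 ± 0.055 in withdrawal and -0.22 ± 0.061 in cocaine, without a call. Klc2, the light chain expressed in many tissues, had 104.3 ± 12 RPKM in withdrawal, 101.7 ± 4.7 RPKM in cocaine and 99.6 ± 5.8 RPKM in saline. Klc3 (11.1 ± 0.39, 10.2 ± 1.6 and 12.98 ± 1.9 RPKM in withdrawal, cocaine and saline), a light chain of sperm tails, and Klc4 (11.5 ± 0.45, 10.4 ± 0.82 and 11.9 ± 2.1 RPKM) had overlapping lanes. Within a lane, the summed light chains over the summed heavy chains came to 0.617 ± 0.044 in withdrawal and 0.540 ± 0.030 in cocaine, against 0.755 ± 0.040 in saline, both apart from saline and overlapping each other. The heavy chain models are 6030 to 7142 bp long and those of Klc1 and Klc2 4074 and 3719 bp, and differences from saline went with length, as described further on. The part of length in this ratio was not tested.

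Kinesin-2 showed the clearest opposite differences within a subfamily. Kif3a is the shared subunit that pairs with Kif3b or Kif3c, and with Kifap3 forms the motor of axonal vesicles and of the cilium. It had 47.0, 55.5 and 48.5 RPKM in the withdrawal lanes and 54.6, 56.1 and 56.7 RPKM in the cocaine lanes, against 63.3, 65.7 and 70.2 RPKM in the saline lanes. Both libraries lay wholly below saline, at -0.40 ± 0.084 in withdrawal and -0.25 ± 0.046 in cocaine, without a call. Kif3c, the neuronal partner, lay wholly above saline, with 43.3 ± 0.53 RPKM in withdrawal and 45.1 ± 1.2 RPKM in cocaine, against 35.5 ± 1.5 RPKM in saline (0.28 ± 0.035 and 0.34 ± 0.040). Kif3b had 24.5 ± 1.5 RPKM in withdrawal, 23.1 ± 1.1 RPKM in cocaine and 25.2 ± 2.7 RPKM in saline, with overlapping lanes.

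As a ratio within a lane, Kif3a over the sum of both partners was 0.709, 0.792 and 0.724 in the withdrawal lanes and 0.830, 0.802 and 0.825 in the cocaine lanes, against 1.09, 1.09 and 1.10 in the saline lanes. The subunit was thus at about the level of its partners in saline and below it in the other libraries, and no lanes of any 2 libraries overlapped. A factor that scales a whole lane cancels in such a ratio. Kif3a, Kif3b and Kif3c models are 5871, 3255 and 6574 bp long, while their GENCODE M21 exons cover 3586, 5635 and 7406 bp. The part of length in this ratio was not tested. Reads of Kif3c may also include antisense transcripts, as given above. Kifap3, the cargo-binding subunit and not itself a member, was at 57.5 RPKM in withdrawal, 61.5 RPKM in cocaine and 67.3 RPKM in saline. Kif17, which carries NMDA receptors in dendrites, had 15.5, 16.7 and 18.9 RPKM in withdrawal, 13.95, 13.1 and 15.4 RPKM in cocaine and 14.4, 14.6 and 14.8 RPKM in saline. The withdrawal lanes were apart from saline (0.21 ± 0.080) and from cocaine (0.26 ± 0.10).

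**Figure D3:**
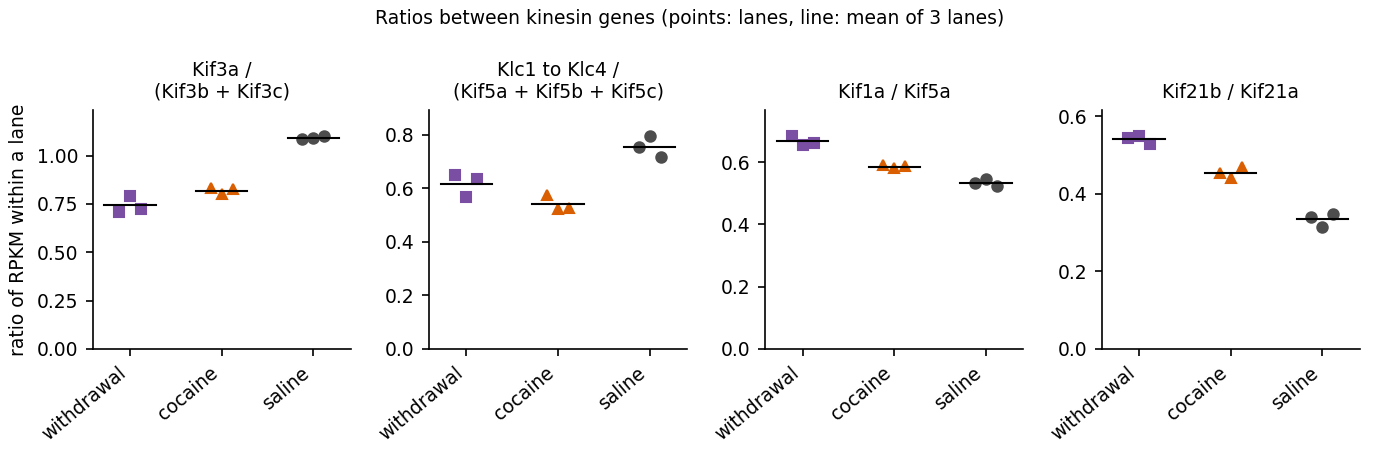
Ratios of RPKM within each lane for 4 pairs of kinesin genes or sums, in the withdrawal, cocaine and saline libraries; points are lanes and the line is their mean. Kif3a over its partners lies below the saline value of 1.09 in every lane of withdrawal and cocaine, while Kif1a over Kif5a (0.667 and 0.586, against 0.534) and Kif21b over Kif21a lie above saline. The part of gene length in these ratios was not tested.

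Among the remaining members, Kifc2, a minus end-directed motor of neurons, was the most abundant, with 87.1 ± 5.7 RPKM in withdrawal and 82.9 ± 3.3 RPKM in cocaine, against 75.2 ± 2.6 RPKM in saline, apart from saline in both but not called. Kif2a, which shortens microtubules and limits axon branches, had 12.3 ± 0.52 RPKM in withdrawal, 13.6 ± 0.19 RPKM in cocaine and 14.1 ± 0.96 RPKM in saline, the withdrawal lanes being apart from both others. Kifc3, a minus end-directed motor of epithelial cells, had 19.8 ± 1.7, 19.7 ± 1.1 and 20.0 ± 0.55 RPKM in withdrawal, cocaine and saline. Kifc1, a spindle motor, was at 1.19 ± 0.23 RPKM in withdrawal and 0.937 ± 0.13 RPKM in cocaine, against 1.39 ± 0.095 RPKM in saline, the largest difference below saline in cocaine (-0.39 ± 0.086), at a level that its copy Kifc5b makes uncertain. The ciliary members Kif7, Kif9, Kif19a and Kif27 had means of 1.31 to 2.07 RPKM over the lanes, none called. Kif27 and Kif7 were apart from saline in withdrawal (0.38 ± 0.13 and 0.34 ± 0.18), and Kif19a, which shortens cilia, in withdrawal and cocaine (0.35 ± 0.061 and 0.21 ± 0.081). The 13 genes of the list of motile cilia and ependymal markers in the table summed to 15.9 to 19.9 RPKM in withdrawal and 18.9 to 25.4 RPKM in cocaine, against 23.9 to 29.5 RPKM in saline, and the cocaine range overlapped that of saline. Of the 9 tested, Rsph4a (0.36 in withdrawal and 0.37 in cocaine) and Spag6 (0.56 and 0.65, called in cocaine) had lanes apart and above saline in both libraries. Rsph1 (-0.64) and 1700009P17Rik (-0.66) were called lower in withdrawal and Ccdc153 (-0.60) in cocaine. These calls were unstable: that of Spag6 ended without cocaine replicate 3 (0.43) or saline replicate 3 (0.56), that of Ccdc153 without cocaine replicate 1 (-0.39) or saline replicate 2 (-0.47), that of Rsph1 without withdrawal replicate 2 (-0.56), and that of 1700009P17Rik without withdrawal replicate 2 (-0.51) or saline replicate 1 (-0.54). Tekt4 was called lower in withdrawal than in cocaine (-0.71), a call that ended with a pseudocount of 1 (-0.54). The part of ciliated cells in the values of these kinesins was not tested.

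Mitotic kinesins, 12 on the list, were near the floor. Kif20a, Kif22 and Kifc1 passed 1 RPKM, and Kif4, Kif11, Kif14, Kif15, Kif18a, Kif18b, Kif20b, Kif23 and Kif2c did not. Kif22, a chromosome motor, had lanes from 0.956 to 1.73 RPKM in withdrawal and 1.16 to 1.79 RPKM in cocaine, against 0.483 to 1.96 RPKM in saline, and Kif20a, a motor of cell division, had 1.94 ± 0.31 and 2.01 ± 0.31 RPKM, against 2.15 ± 0.20 RPKM in saline. The sum over the 12 was 6.53 to 7.24 RPKM in the withdrawal lanes and 6.34 to 6.85 RPKM in the cocaine lanes, against 5.83 to 8.31 RPKM in the saline lanes, which overlapped both. The 15 markers of dividing cells in the table summed to 12.6 to 14.5 RPKM in withdrawal, 11.5 to 13.3 RPKM in cocaine and 13.5 to 15.3 RPKM in saline. The 11 members below 1 RPKM, these 9 with Kif6 and Kif24, had means from 0.0822 to 0.801 RPKM. Kifc1 at 1.17 RPKM and Kif24 at 0.801 RPKM were the members next to the filter. Kif18b rested on 6.0 read equivalents in withdrawal, 4.0 in cocaine and 9.1 in saline, so no difference was detectable at this depth.

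Without the size limit, 15 of 31 members (48.4%) had all withdrawal lanes above saline and 4 (12.9%) all below, against 18.6% and 25.6% of all tested genes (44.2% either way). In cocaine these counts were 12 (38.7%) above and 3 (9.68%) below, against 18.3% and 23.9% of all tested genes (42.1% either way). Lanes of members scattered less than those of all tested genes (median SD of log2 values 0.0742 to 0.0935, against 0.114 to 0.130). A smaller scatter lets lanes stand apart at a smaller difference, and its part in these shares was not tested. Klc1 and Kif3a were below saline in both libraries, with Kifc1 in cocaine and with Kif21a and Kif2a in withdrawal. The median log2 difference of the tested members was 0.21 in withdrawal and 0.16 in cocaine, against -0.06 and -0.05 over all tested genes. With a filter of 5 RPKM the member median came to 0.062 in withdrawal and 0.030 in cocaine, and with no filter to 0.11 and 0.065. The 2 comparisons share the saline library and so are not independent of each other. Between withdrawal and cocaine, 4 members (12.9%) were apart and higher, Kif1a, Kif13a, Kif17 and Kif21b, and 6 (19.4%) apart and lower, Kif5a, Kif5b, Kif5c, Kif1c, Kif21a and Kif2a, where the shares of all tested genes were 8.66% and 9.42% (18.1% either way).

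**Figure D4:**
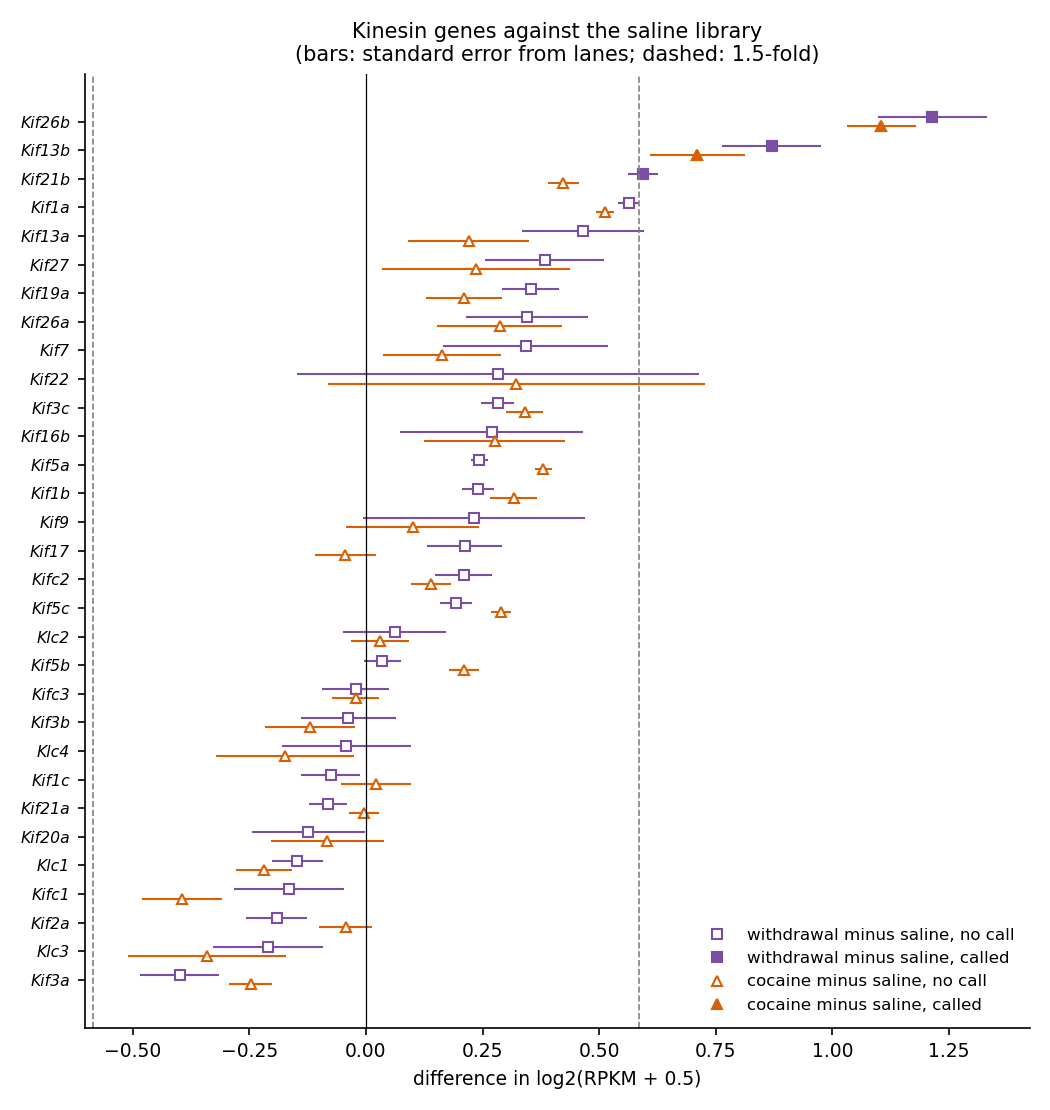
Difference in log2(RPKM + 0.5) from saline of the 31 tested kinesin genes, ordered by the withdrawal value; squares are withdrawal, triangles cocaine, filled markers called, bars the standard error from lanes and dashed lines 1.5 times. Kif26b (1.21 and 1.11) and Kif13b (0.87 and 0.71) lie past the limit in both, Kif21b (0.59) in withdrawal, and Kif3a lies lowest in withdrawal at -0.40.

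Differences from saline went with gene length, and kinesin models are long. The 31 tested members had a median length of 5810 bp and all tested genes one of 3531 bp, and 26 of the 31 were longer than that median. Across the 31 members the Spearman correlation of the difference with length was 0.36 in withdrawal and 0.55 in cocaine, against 0.42 and 0.46 across all tested genes, as a description over genes that share these libraries. Genes in the same length range as Kif26b (8044 to 9955 bp) had a median difference of 0.20 in withdrawal and 0.20 in cocaine, and those in the range of Kif13b (5535 to 6123 bp) had 0.07 in both. Less these medians, Kif26b was at 1.01 and 0.90 and Kif13b at 0.80 and 0.64, still past the limit and still called at these model lengths. Kif1a came to 0.36 and 0.31 and Kif5a to 0.12 and 0.25, while Kif1b, in a model of 16724 bp, came to -0.04 and 0.01. Kif3a moved further down, to -0.47 and -0.32. Centred in this way, 11 members (35.5%) were apart and above saline and 4 (12.9%) below in withdrawal, against 18.6% and 18.0% of all tested genes, and 10 (32.3%) above and 5 (16.1%) below in cocaine, against 16.3% and 16.3%. Model lengths were derived from the RPKM values, and the GENCODE M21 exons of Kif26b and Kif13b cover more, 14696 and 13017 bp. Genes with models of 9960 bp or more had medians of 0.28 in withdrawal and 0.30 in cocaine. The GENCODE lengths would put both genes in this range. Less these medians, the cocaine difference of Kif13b (0.71) would fall inside the limit of 0.585. Its withdrawal difference (0.87) would lie about at that limit, while Kif26b would stay past it in both libraries. The calls of Kif13b thus depend on the length taken.

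**Figure D5:**
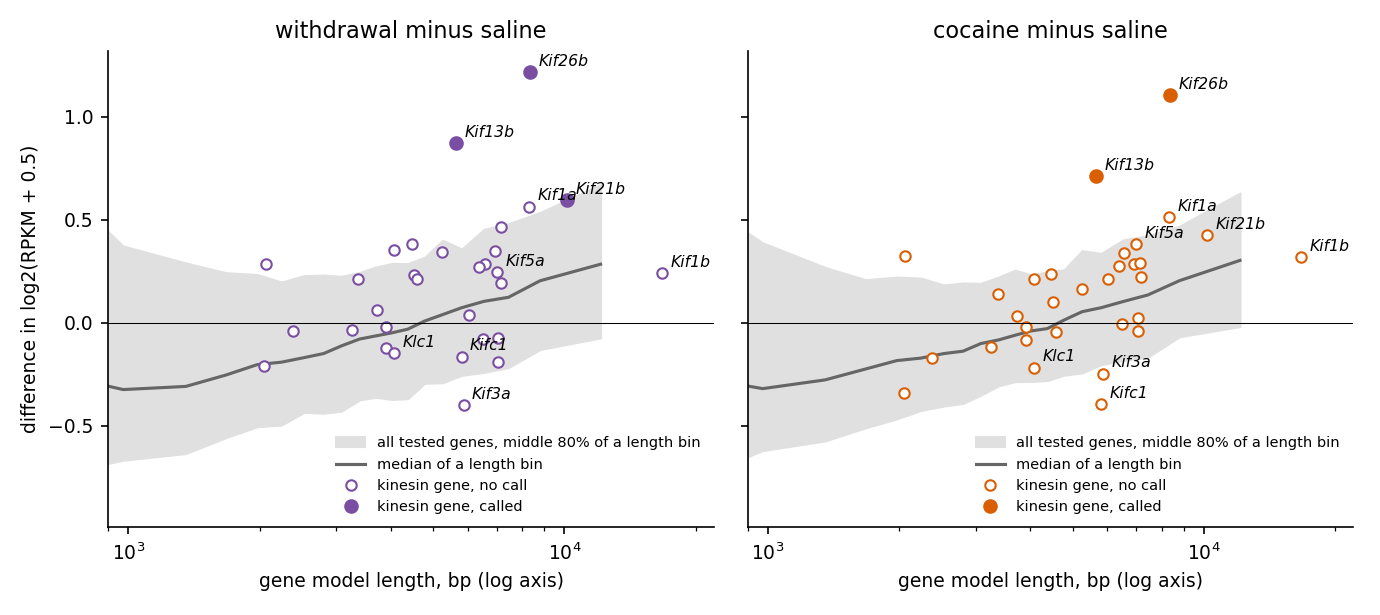
Difference in log2(RPKM + 0.5) from saline against gene model length (log axis) for the 31 tested kinesin genes, withdrawal on the left and cocaine on the right; the line is the median and the band the middle 80% of all tested genes in 20 length bins. Kif26b, Kif13b and Kif1a lie above the band in both panels, Kif21b sits within it and Kif3a lies below it, as does Kifc1 in cocaine.

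The markers of other cells also differed between the libraries. For the marker counts below, 3.96% of all tested genes were called higher than saline in withdrawal and 2.93% in cocaine. Called lower were 3.37% and 2.41%. Lanes were apart and above saline for 18.6% and 18.3%, and below for 25.6% and 23.9%. All 8 endothelial markers were tested, and they summed to 76.0 to 83.9 RPKM in withdrawal and 69.1 to 74.7 RPKM in cocaine, against 52.1 to 53.1 RPKM in saline, with 6 called higher in withdrawal and 3 in cocaine, among them Flt1 (0.86 ± 0.052 and 0.80 ± 0.067), Tek (0.70 and 0.74) and Vwf (0.71 and 0.79). Centred by length, Flt1 (0.57 and 0.50) and Vwf (0.42 and 0.48) lost their calls. Tek (0.69 and 0.72) stayed past the limit, as did Pecam1 (0.82), Cldn5 (0.81) and Kdr (0.67) in withdrawal. The 8 markers of cortical projection neurons summed to 21.8 to 24.0 RPKM in withdrawal and 25.1 to 29.9 RPKM in cocaine, against 40.8 to 44.3 RPKM in saline, with Slc17a7, a vesicular glutamate transporter, lower in both (-2.08 and -1.64). Cux2 of the same list lay above saline (0.48 and 0.44, lanes apart, no call), and Nrn1 was called lower in withdrawal (-1.002).

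Medium spiny neuron markers, all 12 tested, summed to 1927 to 1947 RPKM in withdrawal and 1595 to 1679 RPKM in cocaine, against 2140 to 2243 RPKM in saline, a sum made up mostly of Penk and Ppp1r1b. Gene by gene, 3 were apart and above saline and 3 below in withdrawal, with a median of 0.04 and Pde10a called higher (0.69, and 0.41 when centred by length, without a call). In cocaine 1 was above and 8 below, with a median of -0.30 and Ppp1r1b (-0.75) and Tac1 (-0.75) called lower. All 12 were higher in every withdrawal lane than in every cocaine lane, as were 8.66% of all tested genes. Oligodendrocyte precursor markers overlapped saline in their sum, which is mostly Olig1 (314.8 to 338.2 RPKM in withdrawal and 317.3 to 362.7 RPKM in cocaine, against 299.7 to 323.1 RPKM in saline). Yet 4 of the 7, Tnr, Pdgfra, Cspg4 and Gpr17, were apart and above saline in both libraries and none was below, and Tnr, an extracellular matrix gene, was called higher (1.88 ± 0.092 and 1.73 ± 0.093).

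Astrocyte markers summed to 1038 to 1080 RPKM in withdrawal and 1128 to 1137 RPKM in cocaine, against 1166 to 1189 RPKM in saline, with Aldoc the largest part. They were split, since Aqp4, Slc1a2 and Slc1a3 were apart and above saline in both libraries and the other 5 apart and below, with S100b called lower in withdrawal (-0.67, and -0.42 when centred by length). Oligodendrocyte markers summed to 1800 to 1813 RPKM in withdrawal and 1878 to 1905 RPKM in cocaine, against 1982 to 2006 RPKM in saline, with 1 apart and above saline and 4 below in each and none of the 10 called. Microglia markers summed to 128.2 to 137.7 RPKM in withdrawal and 132.6 to 145.4 RPKM in cocaine, against 147.2 to 165.1 RPKM in saline, and none of the 8 was called. Among choroid plexus markers Ttr, a thyroid hormone carrier, was called higher in cocaine (0.949 RPKM in withdrawal and 7.51 RPKM in cocaine, against 2.37 RPKM in saline), while Clic6, Prlr and Otx2 overlapped saline. Ttr was also called lower in withdrawal than in cocaine (-2.45). No gene of these lists was at 0 in every lane. The part of these cells in the differences of Kif26b, Kif13b, Kif21b, Kif1a and Kif3a was not tested, and in pooled tissue fewer cells of a type and less RNA per cell cannot be told apart.

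Of the genes that work with kinesins, 30 adaptors and cargo receptors were tested and none was called in any of the 3 comparisons, with a median difference from saline of 0.04 in withdrawal and 0.01 in cocaine. Lanes were apart and above saline for 11 of the 30 and below for 9 in withdrawal, and for 8 and 8 in cocaine. Of all tested genes, 18.6% were apart and above and 25.6% below in withdrawal, and 18.3% and 23.9% in cocaine. Kidins220, Trak2, Fez1 and Kifap3 are named after their values were seen. Kidins220, which links kinesin-1 to neurotrophin receptors, had 63.0 RPKM in withdrawal and 64.5 RPKM in cocaine, against 47.7 RPKM in saline (0.40 and 0.43), and the mitochondrial adaptor Trak2 had 33.3 and 34.4 RPKM, against 25.8 RPKM in saline (0.36 and 0.41). Fez1, an adaptor of kinesin-1, lay the other way, at 73.7 RPKM in withdrawal and 73.7 RPKM in cocaine, against 97.2 RPKM in saline (-0.40 and -0.40).

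In the opposing motor, 25 dynein and dynactin genes were tested, with 1 called higher in withdrawal and 2 in cocaine and none lower. Of all tested genes, 3.96% were called higher in withdrawal and 2.93% in cocaine. Dync1h1, the dynein heavy chain, had 69.7 ± 2.6 RPKM in withdrawal and 65.0 ± 0.64 RPKM in cocaine, against 42.5 ± 2.2 RPKM in saline (0.71 ± 0.053 and 0.61 ± 0.043). Bicd1, a dynein adaptor, was called in cocaine (3.22 ± 0.27 RPKM, against 1.97 ± 0.30 RPKM in saline). Their models are 14398 and 13755 bp long, and centring by length brought both below the limit (Dync1h1 at 0.42 in withdrawal and 0.30 in cocaine, Bicd1 at 0.30 in cocaine). The cocaine call of Dync1h1 ended without saline replicate 1 (0.57), and that of Bicd1 without cocaine replicate 1 (0.56), cocaine replicate 3 (0.58) or saline replicate 2 (0.51), with a pseudocount of 1 (0.51) and with the authors' composite values (0.56). The median over the 25 genes was -0.17 in withdrawal and -0.09 in cocaine.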

How the data were processed

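The authors deposited RPKM values for each lane, and composites for each library, along with read totals per the file headers. The submitters' processing notes list Bowtie 0.12.7 and mm9; counter and annotation are not given in the sources used here. Lane totals were 5546362 to 12026754, which makes 1 read in a 2 kb gene worth 0.0416 to 0.0901 RPKM. The median lane SD of log2 values was 0.0742 to 0.0935 for members and 0.114 to 0.130 for all tested genes. Composites matched depth-weighted lanes within a relative gap of 6.9e-14.

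Gene model length was the smallest whole length for which value times lane total was a multiple of 1/37 of a read (multiplied by 37 for 108 genes). Only 25.2% of values were whole reads, within 0.01 of a read, so no count test was run. Comparisons used log2(RPKM + 0.5), a scale on which low genes change less than in RPKM, with python 3.11.15, and as an alternative with limma 3.58.1 in R 4.3.3, which compares libraries and not treatments. The size rule was tested on simulated data, which held the spread between lanes and none between mice or libraries. Members, lists, the rule for named genes (called members, the 3 largest differences each way, the 8 highest levels, 16 fixed members and called genes of other lists) and alternatives were chosen with earlier results of these data known. Members outside that rule are also given values, to account for all. Not every gene that overlaps a member is named here.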

Additional observations from a re-analysis of the deposited data

How the results depend on the processing

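The count of called members (2 in cocaine, 3 in withdrawal) came to 1 with Kif13b alone in cocaine at a filter of 5 RPKM, to 1 in cocaine and 1 in withdrawal at a limit of 2 times, and to 7 in cocaine (6 higher) and 10 in withdrawal (9 higher) at a log2 limit of 0.32. Shares of all tested genes at these other limits were not counted, so these counts have no background beside them. By limma on the lanes the count was 11 in cocaine (9 higher) and 11 in withdrawal (10 higher). Of all tested genes limma had 10.2% higher and 14.4% lower in cocaine, and 12% higher and 18.2% lower in withdrawal. The member counts were 11 and 11 again with the lane number as a replicate block. Lane numbers are only run numbers, and lanes with the same number correlated at -0.0512 to 0.0764 across libraries. Between withdrawal and cocaine the count stayed 0 under every alternative run. In withdrawal it was 4, Kif1a included, when the all-gene median was set to 0 or lanes were scaled by their 75th percentile. Under 75th percentile scaling 535 genes of all tested were higher and 204 lower in cocaine, and 765 and 280 in withdrawal, in place of 411 and 338, and 557 and 473. The member median in cocaine was 0.030 at a filter of 5 RPKM and 0.065 with no filter, and in withdrawal 0.062, 0.11, 0.28 with 75th percentile scaling and 0.13 when centred by length; the cause was not tested. Calls of Kif26b and Kif13b held without any 1 lane. Lanes give no estimate of variation between mice, which limits every difference.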

Other observations

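The tracks on which kinesins run were measured in the same libraries. The 14 tubulin genes tested had no call in any comparison, with a median of -0.19 in withdrawal and -0.17 in cocaine. In withdrawal 11 and in cocaine 7 of them had lanes apart and below saline, while none was above. Of all tested genes, 25.6% and 23.9% were apart and below, and 18.6% and 18.3% apart and above. Tuba1a, Mtap2 and Mtap1a are named after their values were seen. Tuba1a, the main neuronal alpha tubulin, had 719.2 RPKM in withdrawal and 767.1 RPKM in cocaine, against 907.9 RPKM in saline (-0.34 and -0.24). Tubulin genes have near-identical copies, and their levels are uncertain. Their models are short, from 1607 to 2854 bp, and short genes as a group lay below saline.

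Of 24 microtubule-associated protein genes tested, Stmn1 and Stmn4, which bind free tubulin, were called lower than saline in both libraries and none higher. Of all tested genes, 3.37% were called lower in withdrawal and 2.41% in cocaine. Stmn1 had 206.3 ± 2.9 RPKM in withdrawal and 228.9 ± 7.4 RPKM in cocaine, against 360.3 ± 6.2 RPKM in saline (-0.80 ± 0.018 and -0.65 ± 0.030), and Stmn4 had 127.8 ± 8.6 and 123.3 ± 5.5 RPKM, against 192.7 ± 2.5 RPKM in saline (-0.59 ± 0.056 and -0.64 ± 0.039). Centred by length both came below the limit (Stmn1 at -0.49 and -0.38, Stmn4 at -0.39 and -0.46). Under 75th percentile scaling Stmn1 was at -0.58 and Stmn4 at -0.57 in cocaine, and Stmn4 at -0.52 in withdrawal, all inside the limit, as was Stmn4 in withdrawal with the all-gene median set to 0 (-0.54). The withdrawal call of Stmn4 also ended without withdrawal replicate 1 (-0.55), withdrawal replicate 3 (-0.58) or saline replicate 3 (-0.58). The structural proteins of dendrites and axons Mtap2 and Mtap1a, in models of 16132 and 12166 bp, lay above saline without a call, at 83.9 and 128.7 RPKM in withdrawal and 88.6 and 122.0 RPKM in cocaine, against 61.3 and 86.3 RPKM in saline.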
